A study of Rattus norvegicus with 8 samples.

Results

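Endothelial cells line every blood vessel of the kidney, and 10 genes used as their markers were followed here in the right kidney of nephrectomized and sham-operated rats: Pecam1, Kdr, Flt1, Tek, Cdh5, Emcn, Ehd3, Vwf, Eng and Nos3. Members were chosen by symbol, through the RefSeq accession that the array gives for each probe, and every non-control probe of a member was kept. All 10 genes were on the array, with 13 probes, and all 10 entered the comparison among 20935 features (1 probe per gene or unnamed transcript), of which 10240 had a symbol. The 4 nephrectomized and 4 sham samples came from female rats of the strain F344/NSlc, 10 weeks old, with no other allele or agent named, and the labels number the samples without naming the animals. Unilateral nephrectomy takes out 1 kidney so that the remaining one carries the whole load, and a sham operation leaves both in place. The design text has the kidneys taken 2 days after either operation, whereas the sample names give 2 days for the nephrectomized rats and 1 day for the sham rats. If the sample names hold, day and operation cannot be told apart. Each whole-kidney RNA was hybridised to its own 1-colour Agilent array, so a bulk value cannot tell fewer endothelial cells from less RNA per cell.

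Kidney endothelium is specialised by site. Glomerular capillaries are fenestrated and lie against podocytes, which secrete VEGF-A that acts on the receptor KDR, while the peritubular capillaries take up what the tubules reabsorb. The angiopoietin receptor TEK, the junction proteins of CDH5 and PECAM1 and the nitric oxide made by NOS3 keep the vessel wall quiescent and control its tone, and VWF stored in endothelial granules is released for haemostasis.

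Transcripts of all 10 markers were detected: 12 of the 13 probes were well above background on all 8 arrays, and the second Vwf probe was so on 3 nephrectomized and 4 sham arrays. No spot was saturated. On the arrays, 59.5% to 66.1% of probes were well above background and the 75th percentile of the processed signal lay between 388.1 and 643.5. Each value below is the log2 processed signal minus its array's 75th percentile, so that 0 is a signal at that percentile. Brightness depends on the probe as well as on the transcript, so the level of 1 probe is not set against that of another. Where a gene is called the brightest of its list, this refers to the signal of its probe, and a summed signal of a list is weighted towards its bright probes. The 8 arrays lay on 2 slides with 2 nephrectomized and 2 sham arrays on each, replicates 1 and 2 on slide 1 and replicates 3 and 4 on slide 2, and the groups held different positions on both slides, so position and operation cannot be told apart. Over all features, 157 were higher and 60 lower in nephrectomized kidneys at a limma adjusted p under 0.05.

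Promoter sequence was at hand in RefSeq (assembly GRCr8) for 6 of the 10 members, as 300 bases running from 250 before to 50 after the gene's start. The 3 shown are those of Flt1 and Nos3, whose values ran together along the arrays, and of Emcn, whose values ran against those of Nos3, as described further on. Flt1 lies on the plus strand at chr12:12333180-12333479, Nos3 on the minus strand at chr4:11706532-11706831 and Emcn on the plus strand at chr2:228564289-228564588. Capitals mark GGAAG, a core of the sites of ETS factors, a family that includes the endothelial regulators ERG and FLI1, read on either strand (CTTCC on the other).
Flt1: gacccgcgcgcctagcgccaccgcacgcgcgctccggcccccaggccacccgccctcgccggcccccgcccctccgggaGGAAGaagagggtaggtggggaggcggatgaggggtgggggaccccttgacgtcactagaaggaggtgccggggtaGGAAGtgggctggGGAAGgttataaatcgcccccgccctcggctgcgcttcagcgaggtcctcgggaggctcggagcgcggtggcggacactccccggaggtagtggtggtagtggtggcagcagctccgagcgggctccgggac
Nos3: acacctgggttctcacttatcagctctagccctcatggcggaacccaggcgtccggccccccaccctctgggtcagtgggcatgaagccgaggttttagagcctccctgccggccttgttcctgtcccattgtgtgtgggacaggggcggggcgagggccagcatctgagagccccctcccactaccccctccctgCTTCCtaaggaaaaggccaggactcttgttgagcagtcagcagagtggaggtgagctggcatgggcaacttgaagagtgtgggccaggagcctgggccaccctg
Emcn: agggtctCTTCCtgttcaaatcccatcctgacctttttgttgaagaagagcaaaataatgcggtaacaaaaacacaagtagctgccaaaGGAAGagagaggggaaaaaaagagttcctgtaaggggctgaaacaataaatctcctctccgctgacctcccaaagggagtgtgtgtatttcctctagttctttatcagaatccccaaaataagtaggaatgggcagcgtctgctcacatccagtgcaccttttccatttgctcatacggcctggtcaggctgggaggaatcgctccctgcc
Flt1 had 3 matches, Emcn 2 and Nos3 1, and all 6 members with a promoter had at least 1. The same letters stood in 70.1% of 33469 promoters of this length, so a match is common. CACCC, a core of KLF sites, was in 4 of the 6 against 54.9% of all promoters, TATAAA in 1, that of Flt1, against 14.2%, and AGATAA, a form of the GATA site, in 0 against 11.6%, each on both strands. These matches describe the letters of the window and are not sites shown to be bound.

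None of the 10 endothelial markers passed the test in either direction after nephrectomy. At a limma adjusted p under 0.05, 0 of 10 were called in either direction, against 1.04% of all features. At an unadjusted p under 0.05 the count was also 0, against 16% of all features, and in 0 of 10 did the 4 nephrectomized and 4 sham values fail to overlap, against 11.1%. These shares over all features, 1.04%, 16% and 11.1%, are also the ones beside which the list counts below stand. With every probe as its own feature, 0 of the 13 member probes were called by limma, against 0.821% of 25228 probes. The estimated log2 change was positive for 6 members and negative for 4, with a median of 0.07 beside 0.01 over all features. Its median size was 0.14 beside 0.10, and the median standard error 0.11 beside 0.09. The 95% intervals of all 10 stayed within 2-fold in either direction, with the lowest end at -0.69 (Pecam1) and the highest at 0.85 (Vwf) on the log2 scale. Adjusted p-values of the members in limma ran between 0.376 and 0.928. Over all features, the smallest log2 change past the threshold was 0.29 in size, above the estimate of every member.

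**Figure D1:**
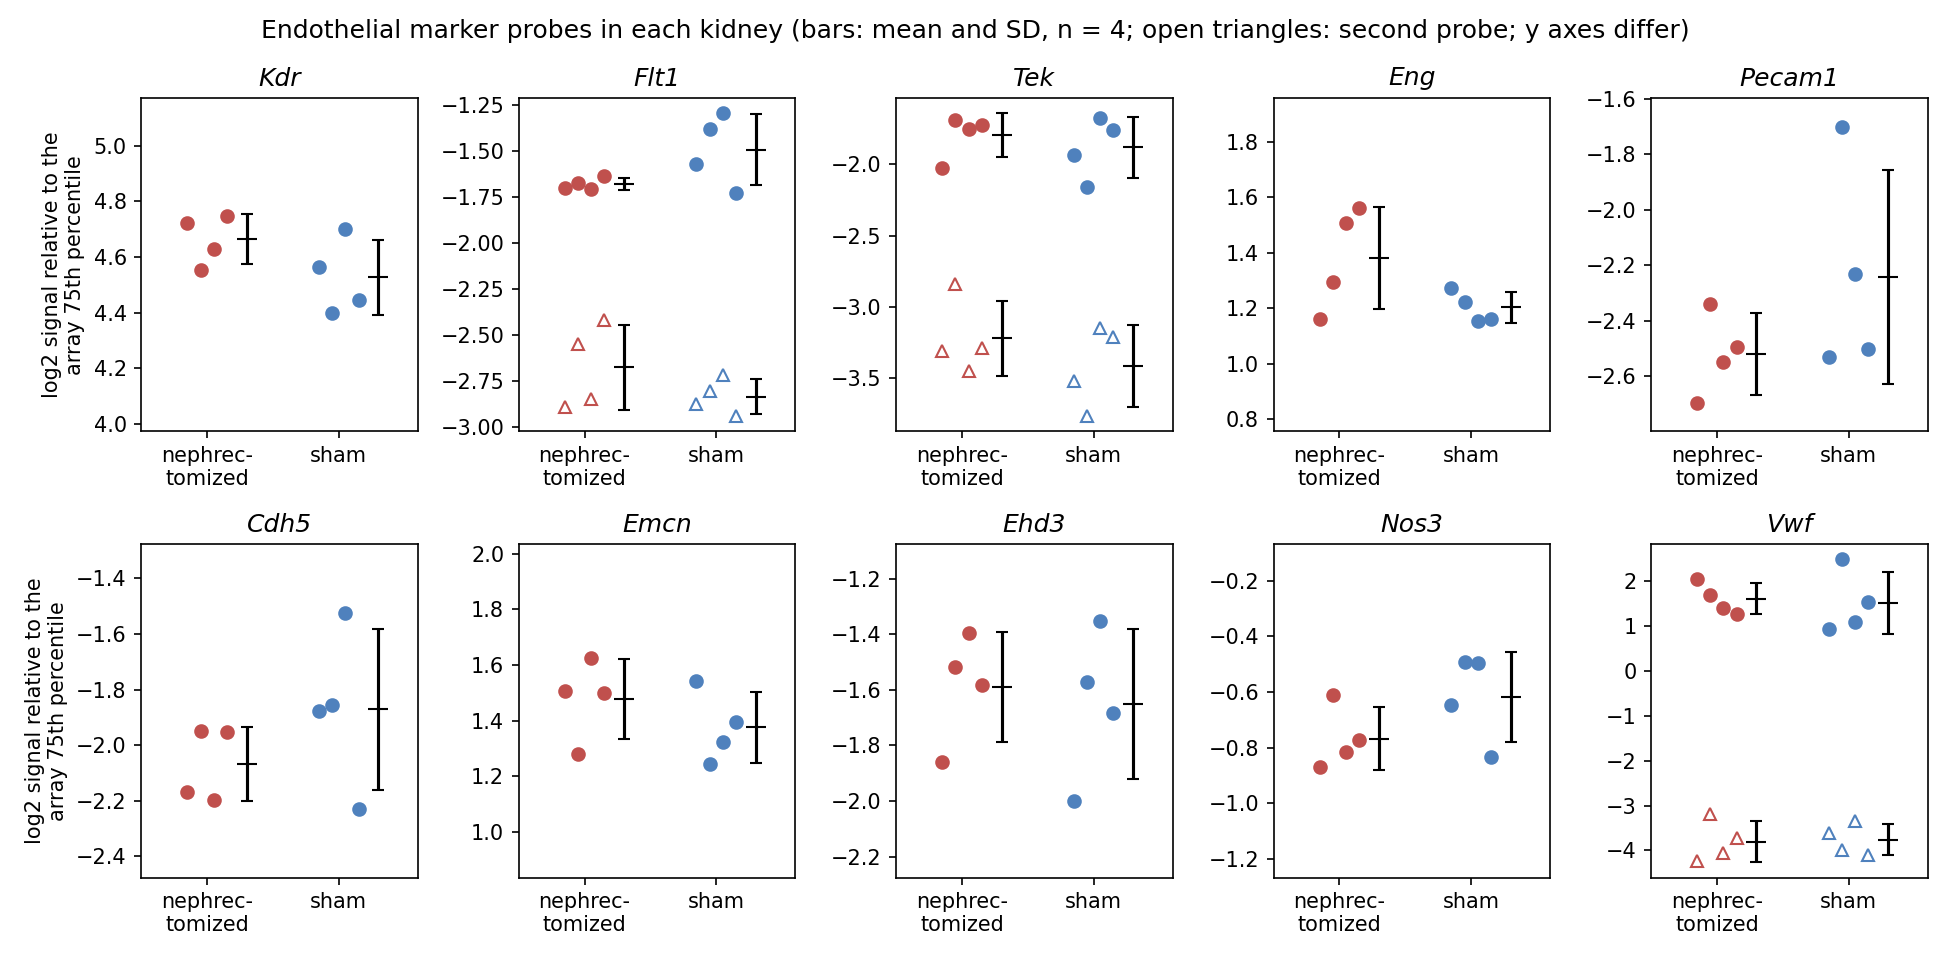
Log2 signal relative to each array's 75th percentile (vertical axis) of the 10 endothelial markers, 1 panel per gene, with the 4 nephrectomized arrays left of the 4 sham arrays. Each probe has 1 point per array and its mean ± SD per group. Filled circles are the probe used for the gene, and open triangles are the second probe of Flt1, Tek and Vwf. Both groups overlap for every probe, and the sham circles of Vwf, between 0.94 and 2.49, and of Pecam1, between -2.53 and -1.70, spread the most.

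Kdr encodes the main signalling receptor for VEGF-A. Its probe read 4.72, 4.55, 4.63 and 4.75 in nephrectomized replicates 1 to 4, against 4.56, 4.40, 4.70 and 4.44 in sham replicates 1 to 4. Of the nephrectomized arrays, 2 lay above the highest sham array and the other two inside the sham range. The means were 4.66 ± 0.09 in nephrectomized and 4.53 ± 0.14 in sham kidneys (SD, n = 4 each), a log2 change of 0.14 (95% interval -0.05 to 0.33, limma adjusted p = 0.459). Kdr had the smallest standard error of the members, 0.08, and its interval covers 0.965-fold to 1.25-fold. The change was 0.16 on slide 1 and 0.12 on slide 2.

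Flt1 encodes VEGF receptor 1, which binds VEGF-A tightly, signals weakly and also binds VEGF-B and placental growth factor. Its brighter probe, A_44_P520123, read -1.70, -1.68, -1.71 and -1.64 in nephrectomized kidneys, against -1.57, -1.38, -1.29 and -1.73 in sham kidneys. The nephrectomized arrays lay close together at the low end of the sham range, with only sham replicate 4 below them. This gave a log2 change of -0.19 (95% interval -0.41 to 0.03, limma adjusted p = 0.376), the smallest adjusted p among the members, and -0.22 on slide 1 and -0.16 on slide 2. The second probe, A_43_P12015, read -2.89, -2.55, -2.85 and -2.42 in nephrectomized kidneys, against -2.88, -2.81, -2.72 and -2.94 in sham kidneys. There the sign was turned, with a log2 change of 0.16 (95% interval -0.10 to 0.42) and 2 nephrectomized arrays above the highest sham array. The 2 Flt1 probes therefore disagree, and neither was called. With the 2 probes averaged the change was -0.01. The transcript each probe covers was not analysed here.

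Vegfb, which binds FLT1 and not KDR, rose in nephrectomized kidneys by its brighter probe and was the 1 gene called among 17 tested VEGF and angiopoietin ligands and coreceptors. That probe read 2.06, 2.16, 2.06 and 2.07 in nephrectomized kidneys, against 1.67, 1.59, 1.78 and 1.55 in sham kidneys, and the groups did not overlap. Its mean was 2.09 ± 0.05 in nephrectomized and 1.65 ± 0.10 in sham kidneys (SD, n = 4 each), a log2 change of 0.44 (95% interval 0.29 to 0.59) or 1.36-fold, with a limma adjusted p of 0.0358. The second Vegfb probe read 1.50, 1.17, 1.49 and 0.67 in nephrectomized kidneys, against 1.09, 1.08, 0.99 and 1.02 in sham kidneys, with a log2 change of 0.16 (95% interval -0.23 to 0.56) and overlapping groups. The call was kept in 8 of 20 alternative settings, with the same sign in all 20. It was lost when the probes were averaged (log2 change 0.30, limma adjusted p = 0.174), with slide as a block (limma adjusted p = 0.0524) and in 6 of the 8 fits that left out 1 array (limma adjusted p up to 0.107 over the 8). Vegfa, the ligand of both receptors, read 2.94, 3.17, 2.92 and 3.01 in nephrectomized kidneys, against 2.91, 3.04, 3.33 and 2.86 in sham kidneys. By this probe, the brighter of 2, the log2 change was -0.02, with the sham arrays spanning the nephrectomized ones. The second Vegfa probe gave -0.10 (95% interval -0.31 to 0.12). Fgf1, a growth factor for many cell types and the other bright ligand of the list, had a log2 change of -0.12. Over the list the median log2 change was 0.02, with 9 positive and 8 negative. At an unadjusted p under 0.05, 3 were higher and 1 was lower, against 16% of all features. The groups did not overlap for 1 higher and 1 lower gene, against 11.1%. Besides Vegfb these were Pgf (0.44, limma adjusted p = 0.299) and Apln (0.24, limma adjusted p = 0.197), both overlapping, and Thbs1 (-0.46, limma adjusted p = 0.102), without overlap.

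Tek encodes the angiopoietin receptor TIE2. Its brighter probe, A_44_P534601, read -2.02, -1.69, -1.75 and -1.72 in nephrectomized kidneys, against -1.93, -2.16, -1.67 and -1.76 in sham kidneys. The groups overlapped, with the lowest and the highest value of all 8 arrays in sham kidneys. Its log2 change was 0.09 (95% interval -0.19 to 0.36, limma adjusted p = 0.780), 0.19 on slide 1 and -0.02 on slide 2. The second probe, A_44_P335594, gave 0.19 (95% interval -0.20 to 0.58), with 0.57 on slide 1 and -0.19 on slide 2. Without sham replicate 2, the lowest Tek value, the change by the brighter probe was -0.01.

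Eng encodes endoglin, a coreceptor for TGF-beta family ligands. It read 1.16, 1.30, 1.51 and 1.56 in nephrectomized kidneys, against 1.27, 1.22, 1.15 and 1.16 in sham kidneys. Of the nephrectomized arrays, 3 lay above every sham array and replicate 1 lay among them. The means were 1.38 ± 0.19 in nephrectomized and 1.20 ± 0.06 in sham kidneys (SD, n = 4 each), with a log2 change of 0.18 (95% interval -0.04 to 0.39, limma adjusted p = 0.397) or 1.13-fold. The slides differed, with -0.02 on slide 1 and 0.37 on slide 2, each from 2 arrays against 2, and that difference was not tested. With normexp background correction the change was 0.03. Of 11 tested TGF-beta and BMP partners, 0 were called by limma, 1 was higher and 3 were lower at an unadjusted p under 0.05, and the median log2 change was -0.09. The brightest were Smad7, an inhibitor of the pathway (log2 change -0.26, limma adjusted p = 0.281), and Id2, a target of BMP signalling (-0.01, limma adjusted p = 0.978). Besides Smad7, those below an unadjusted p of 0.05 were Id1 (-0.41, limma adjusted p = 0.308) and Id3 (-0.47, limma adjusted p = 0.209), both lower, and Smad6 (0.21, limma adjusted p = 0.207), higher.

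Pecam1 and Cdh5 encode adhesion proteins of the endothelial junction, and both had negative estimates that did not pass the test. Pecam1 read -2.69, -2.34, -2.55 and -2.49 in nephrectomized kidneys, against -2.53, -1.70, -2.23 and -2.50 in sham kidneys. Sham replicate 2 stood highest, and 2 nephrectomized arrays lay inside the sham range and the other two below it. The log2 change was -0.28 (95% interval -0.69 to 0.13, limma adjusted p = 0.496), or 0.824-fold. Without sham replicate 2 it was -0.10, so that 1 array carried most of the estimate, and with normexp background correction it was -0.08. Cdh5, or VE-cadherin, read -2.17, -1.95, -2.20 and -1.95 in nephrectomized kidneys, against -1.88, -1.86, -1.52 and -2.23 in sham kidneys. All 4 nephrectomized arrays lay between the lowest sham array, replicate 4, and the other three. Its log2 change was -0.20 (95% interval -0.52 to 0.13, limma adjusted p = 0.545), with -0.19 on slide 1 and -0.20 on slide 2. Leaving out sham replicate 3 made it -0.08, leaving out sham replicate 4 made it -0.32, and normexp background correction made it -0.03. Of 13 tested junction and adhesion partners, 0 were called by limma, 0 were higher and 2 lower at an unadjusted p under 0.05, with a median log2 change of -0.03. The brightest were Afdn, a junction scaffold (log2 change -0.12), and Itgb1, an integrin chain (0.02).

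Emcn encodes endomucin, a sialomucin of capillary and venous surfaces. Its probe read 1.51, 1.28, 1.63 and 1.50 in nephrectomized kidneys, against 1.54, 1.24, 1.32 and 1.40 in sham kidneys. The 2 ranges lay almost on top of each other, with 1 nephrectomized array above the highest sham array. The log2 change was 0.10 (95% interval -0.11 to 0.32, limma adjusted p = 0.637), with 0.00 on slide 1 and 0.20 on slide 2, and 0.06 with normexp background correction. Ehd3, a membrane-trafficking ATPase that marks glomerular capillaries in the mouse kidney, read -1.86, -1.52, -1.40 and -1.58 in nephrectomized kidneys, against -2.00, -1.57, -1.35 and -1.68 in sham kidneys. Its sham arrays held both the highest and the lowest value, and the log2 change was 0.06 (95% interval -0.28 to 0.40, limma adjusted p = 0.885), or 0.13 with normexp background correction. Of 11 tested glomerular capillary and peritubular genes, 0 were called by limma, 2 were higher and 3 lower at an unadjusted p under 0.05, and the median log2 change was -0.03. The brightest were Igfbp3, an IGF-binding protein (log2 change -0.35, limma adjusted p = 0.264), and Aqp1, a water channel that tubules also express (-0.03, limma adjusted p = 0.928).

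Nos3 encodes endothelial nitric oxide synthase. It read -0.87, -0.61, -0.82 and -0.77 in nephrectomized kidneys, against -0.65, -0.49, -0.50 and -0.84 in sham kidneys. Of the sham arrays, 2 lay above every nephrectomized array, and sham replicate 4 lay among the lowest. The log2 change was -0.15 (95% interval -0.37 to 0.07, limma adjusted p = 0.487), with -0.17 on slide 1 and -0.13 on slide 2, and -0.09 with normexp background correction. Of 15 tested genes of nitric oxide signalling, 0 were called by limma and 1 was higher at an unadjusted p under 0.05, with a median log2 change of 0.06. The brightest were Ddah1, which breaks down an inhibitor of nitric oxide synthase (log2 change 0.20, limma adjusted p = 0.263), and Qdpr, which recycles the biopterin cofactor (-0.11, limma adjusted p = 0.617).

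Vwf encodes von Willebrand factor, the clotting protein stored in Weibel-Palade bodies, and was the most variable marker. Its brighter probe, A_44_P1025918, read 2.05, 1.69, 1.40 and 1.28 in nephrectomized kidneys, against 0.94, 2.49, 1.08 and 1.54 in sham kidneys. Sham replicates 1 and 2 were the lowest and the highest of all 8 arrays, on the same slide, and spanned every nephrectomized value. The means were 1.61 ± 0.34 in nephrectomized and 1.51 ± 0.70 in sham kidneys (SD, n = 4 each), with a log2 change of 0.09 and the widest interval of the members (95% interval -0.67 to 0.85, standard error 0.33, limma adjusted p = 0.928). It was 0.42 without sham replicate 2 and -0.10 without sham replicate 1. The second probe, A_43_P15902, read -4.25, -3.19, -4.06 and -3.73 in nephrectomized kidneys, against -3.61, -4.00, -3.34 and -4.10 in sham kidneys. It gave -0.04 (95% interval -0.61 to 0.52), opposite in sign to the brighter probe, and where that one was highest, in sham replicate 2, it was among the low sham values. Of 11 tested Weibel-Palade and haemostasis genes, 0 were called by limma, 2 were higher and 1 lower at an unadjusted p under 0.05, and the median log2 change was 0.07. The brightest besides Vwf were Proc, the zymogen of an anticoagulant protease (log2 change 0.23, limma adjusted p = 0.254), and Tfpi, an inhibitor of the tissue factor pathway (0.07, limma adjusted p = 0.759).

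**Figure D2:**
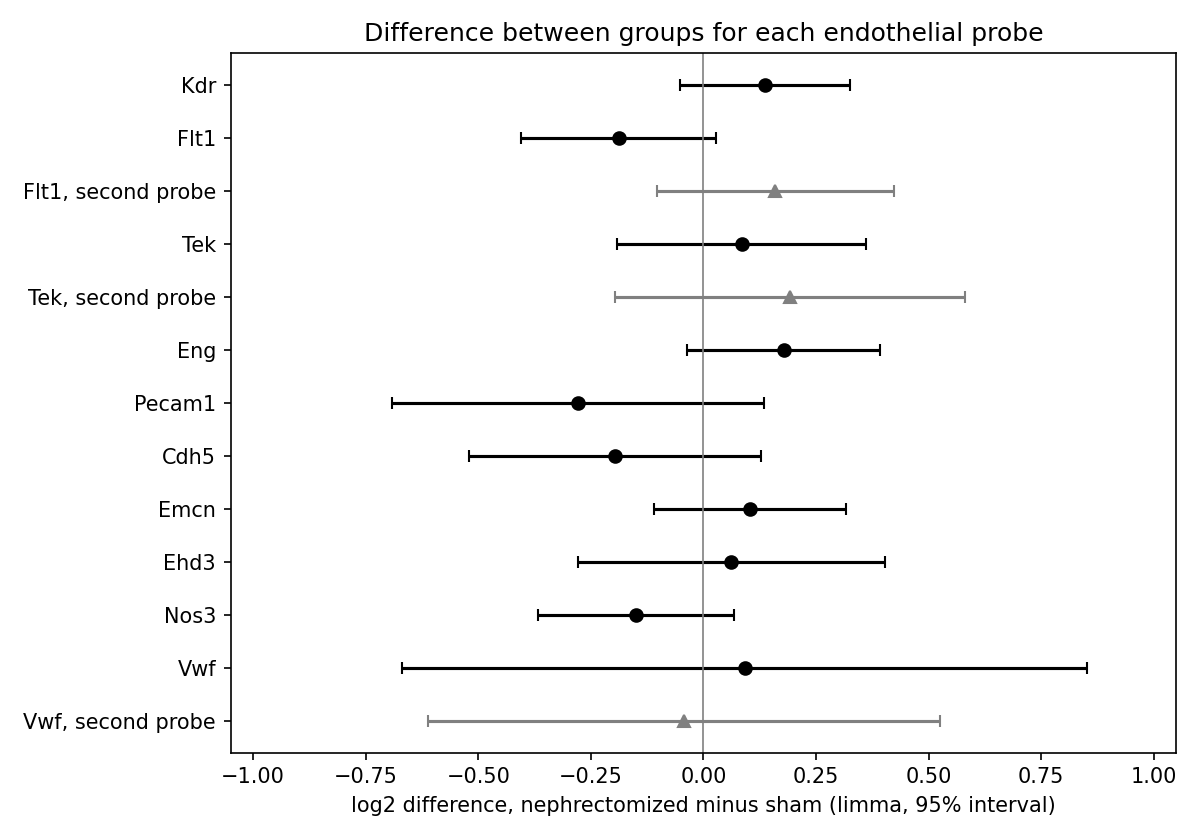
Log2 difference, nephrectomized minus sham, of each of the 13 endothelial marker probes (horizontal axis), with its 95% interval from limma. Black circles are the probe used for the gene and grey triangles a second probe. Every interval includes 0, and the probes of Flt1 and of Vwf fall on opposite sides of it.

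The markers varied from array to array without forming 1 common pattern. Over the 45 pairs of members, Pearson r across the 8 arrays had a median of 0.06, with 9 pairs above 0.5 and 6 below -0.5. Flt1, Cdh5, Nos3 and Pecam1 held the closest pairs. Flt1 and Cdh5 had r = 0.90 and rho = 0.98 (exact permutation p = 7.44e-05 and 0.000397, adjusted over the 45 pairs 0.00335 and 0.0179), with r = 0.89 without the 2 arrays farthest from the Flt1 median. Pecam1 and Nos3 had r = 0.81 and rho = 0.88 (exact permutation p = 0.000819 and 0.00724, adjusted 0.0184 and 0.0815) and r = 0.74 without the 2 farthest arrays. Cdh5 and Nos3 had r = 0.87 and rho = 0.88 (exact permutation p = 0.00241 and 0.00724, adjusted 0.0361 and 0.0815), and r = 0.85 without the 2 farthest. Flt1 and Nos3 had r = 0.87 and rho = 0.83 (exact permutation p = 0.00337 and 0.0154, adjusted 0.0380 and 0.138), and r = 0.64 without the 2 farthest. These 4 pairs passed after adjustment by Pearson r and 1 of them, Flt1 with Cdh5, by rho. With each group's mean taken out, r was 0.89, 0.75, 0.83 and 0.82 in the order given. With normexp background correction, r was 0.59, 0.77, 0.77 and 0.58 in that order and none of the 4 pairs passed after adjustment by exact permutation (adjusted p = 0.565, 0.339, 0.339 and 0.565). Flt1 with Cdh5 passed in 7 of the 8 sets that left out 1 array and not without sham replicate 3 (r = 0.78, adjusted exact permutation p = 0.140). Of these sets, Pecam1 with Nos3 passed only without sham replicate 1 (adjusted exact permutation p = 0.0134). Flt1 with Nos3 passed only without nephrectomized replicate 2 (adjusted exact permutation p = 0.0402). Cdh5 with Nos3 passed in none, with the lowest adjusted exact permutation p, 0.0506, without nephrectomized replicate 2. With the 2 Flt1 probes averaged, r was 0.83 for Flt1 with Cdh5 (adjusted exact permutation p = 0.0967).

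Other pairs ran against each other without passing after adjustment. Emcn and Pecam1 had r = -0.77 and rho = -0.88 (exact permutation p = 0.0104 and 0.00724, adjusted 0.0938 and 0.0815), with r = -0.67 without the 2 arrays farthest from the Pecam1 median. Emcn and Nos3 had r = -0.72 and rho = -0.67 (exact permutation p = 0.0531 and 0.0831, adjusted 0.341 and 0.467), with r = -0.56 without the 2 farthest. All points share the 8 arrays, their 75th percentile scaling and the 2 slides, and each slide, with 4 arrays, holds too few for a value of its own. Among sham arrays, replicate 3 held the highest value of 4 members and replicate 2 the highest of 3 and the lowest of 3, while the mean standardized value of the 10 members was -0.42, 0.04, 0.12 and 0.25 in nephrectomized replicates 1 to 4, against -0.27, 0.22, 0.59 and -0.54 in sham replicates 1 to 4. The sham arrays thus held both the highest and the lowest mean.

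**Figure D3:**
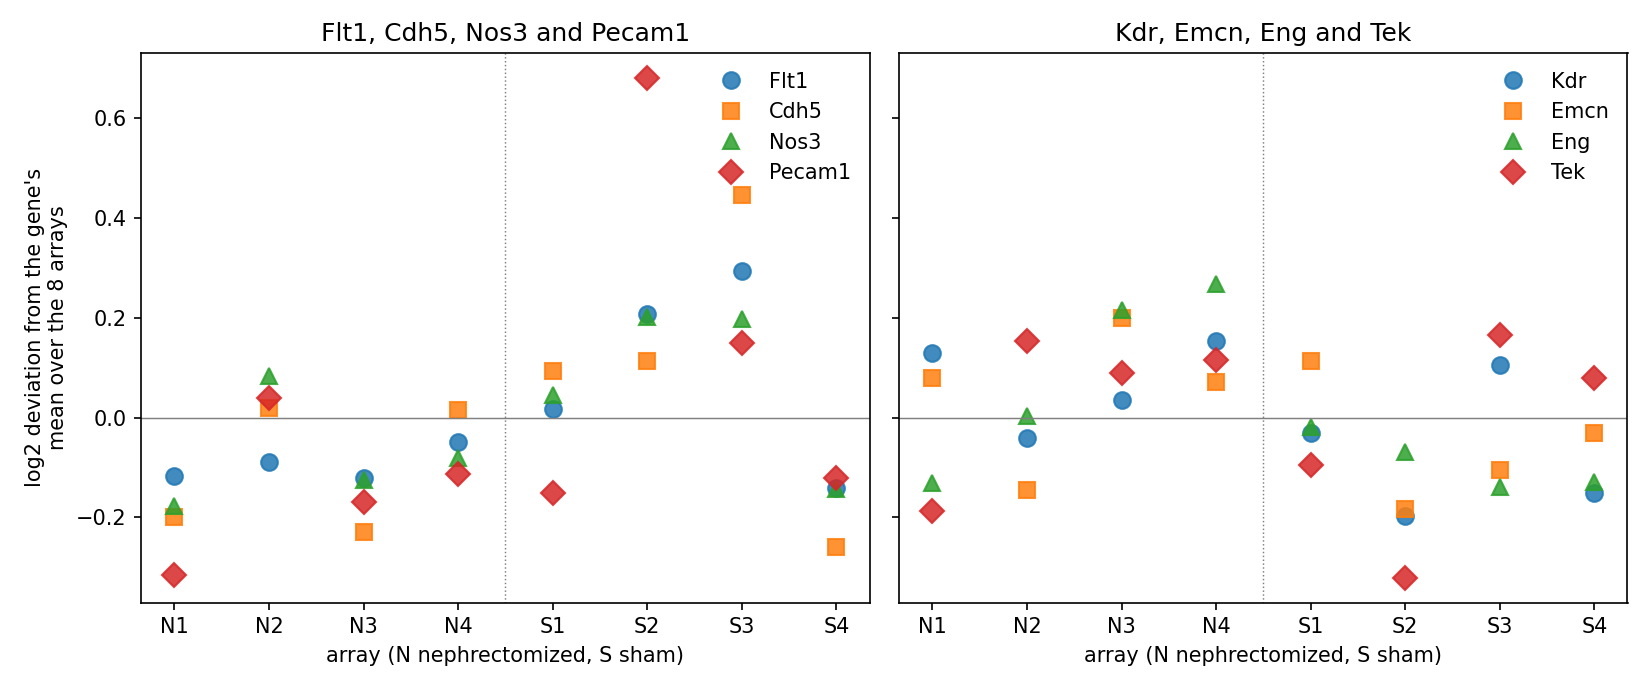
Log2 deviation of each marker from its mean over the 8 arrays (vertical axis), by array, nephrectomized (N1 to N4) left of sham (S1 to S4), for Flt1, Cdh5, Nos3 and Pecam1 in the left panel and Kdr, Emcn, Eng and Tek in the right panel. In the left panel the 4 markers are all high in S2 and S3 and all low in S4, and in the right panel the 4 markers are all low in S2. Vwf and Ehd3 are not drawn. In S2, Vwf was at its highest of the 8 arrays, 2.49, and Ehd3, at -1.57, was above its sham mean of -1.65.

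The 5 features with a symbol whose values over the 8 arrays were most like the mean standardized value of the members, of 10214 compared, were Tmem43 (r = 0.97), Usp42 (r = 0.94), Snrnp48 (r = 0.93), Enpp1 (r = 0.93) and Map2 (r = 0.93). Spearman's rho was 0.98, 0.86, 0.90, 0.90 and 0.88 in the same order, and r without the 2 arrays farthest from the median of the members' mean was 0.94, 0.91, 0.88, 0.97 and 0.92. Being the highest of 10214 values on 8 shared arrays, these are given as a description without a test. None of the 5 was called between nephrectomized and sham kidneys by limma, with adjusted p-values of 0.843 or more. They were picked for following a mean whose highest and lowest values are both sham arrays. This outcome was thus largely fixed by the choice and is no separate result.

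Other endothelial genes gave no call either. Of 30 further pan-endothelial genes, 24 were on the array and 23 were tested, with 0 called by limma. At an unadjusted p under 0.05, 1 was higher and 6 were lower, against 16% of all features. The groups did not overlap for 1 higher and 4 lower genes, against 11.1% of all features. Estimates were positive for 8 and negative for 15, around a median log2 change of -0.08. The brightest were Podxl, a sialomucin that podocytes also express (log2 change 0.01), and Adgrl4, an adhesion receptor of vessels (-0.05). Those below an unadjusted p of 0.05, chosen here after their values were seen, were Tie1, the orphan partner of TIE2 (log2 change -0.26, limma adjusted p = 0.126), Fli1 (-0.26, limma adjusted p = 0.159) and Erg (-0.19, limma adjusted p = 0.251), both ETS factors, Rasip1 (-0.25), Thbd (-0.21), Esam (-0.17) and, with a positive estimate, Tm4sf1 (0.32, limma adjusted p = 0.0650). Of 10 tested arterial, venous and lymphatic genes, 0 were called by limma, 1 was higher and 1 lower at an unadjusted p under 0.05, with a median of -0.04. Gja5, a connexin of arterial endothelium and the higher one, had a log2 change of 0.33 (limma adjusted p = 0.173). Notch4, the lower one, had a log2 change of -0.25 (limma adjusted p = 0.136), and Nr2f2, a venous regulator, of -0.11 (limma adjusted p = 0.728).

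Markers of neighbouring cells were read on the same arrays. The 10 podocyte markers had 0 calls by limma, 1 higher at an unadjusted p under 0.05, and a median log2 change of -0.01, with Ptpro, a podocyte phosphatase, at -0.05. The 8 tested mural cell markers had 0 calls by limma, 0 at an unadjusted p under 0.05, and a median of 0.03, with 5 positive and 3 negative estimates. The brightest were Notch3, a receptor of arterial smooth muscle, at -0.30 (limma adjusted p = 0.423) and Mcam at -0.16 (limma adjusted p = 0.338). Platelets carry VWF too: 4 of 10 platelet markers were tested, 0 were called by limma or had an unadjusted p under 0.05, Ppbp, Gp1ba and Itgb3 were above background on 0 arrays, and the summed signal of the 4 was 1.72 to 1.78 times the 75th percentile in nephrectomized and 1.53 to 1.75 times in sham kidneys. Of these, Gp9 and Gp1bb, subunits of the platelet receptor for VWF, had log2 changes of 0.06 and 0.09. Pf4 had a log2 change of -0.33 (limma adjusted p = 0.505) and Treml1 of 0.22 (limma adjusted p = 0.434). Red cell markers, 4 of 7 tested, had 0 calls by limma, 0 at an unadjusted p under 0.05, and a median of 0.05, with Hbb, a globin chain, at 0.19 and Slc4a1, the anion exchanger, at -0.13. Which cells gave the Slc4a1 signal in whole-kidney RNA was not tested.

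Of 9 tested leukocyte markers, 3 fell in nephrectomized kidneys: S100a8 (log2 change -1.69, limma adjusted p = 0.0358) and S100a9 (-1.40, limma adjusted p = 0.0187), calcium-binding proteins of neutrophils and monocytes, and Adgre1, a macrophage surface receptor (-0.51, limma adjusted p = 0.0476). All 9 estimates were negative, with a median of -0.25, which moved to -0.08 with normexp background correction, -0.11 without a filter on dim probes and -0.14 on slide 2 alone. With 1 array left out it lay between -0.15, without nephrectomized replicate 1, and -0.37, without sham replicate 2. Their summed signal was 21.9 to 25.7 times the 75th percentile in nephrectomized and 24.0 to 26.8 times in sham kidneys. The list's brightest probes, those of Lyz2 (log2 change -0.04) and Cd68 (-0.11), were not called. Cd4 and Itgam were above background on 0 arrays. Of 9 tested proliferation markers, 4 rose by limma, Mcm6 (log2 change 1.56), Mcm3 (1.41), Ccnb2 (2.41) and Cdk1 (2.30), at adjusted p-values between 0.0176 and 0.0429. All 9 estimates were positive, Pcna with 0.30 (limma adjusted p = 0.114), and their median was 1.56. Whether each single call of these 2 lists was kept in the alternative settings is not given here. With 1 array left out, the count of features past the threshold, 217 with all arrays, lay between 22 and 198. The part of either list in the endothelial values was not tested.

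**Figure D4:**
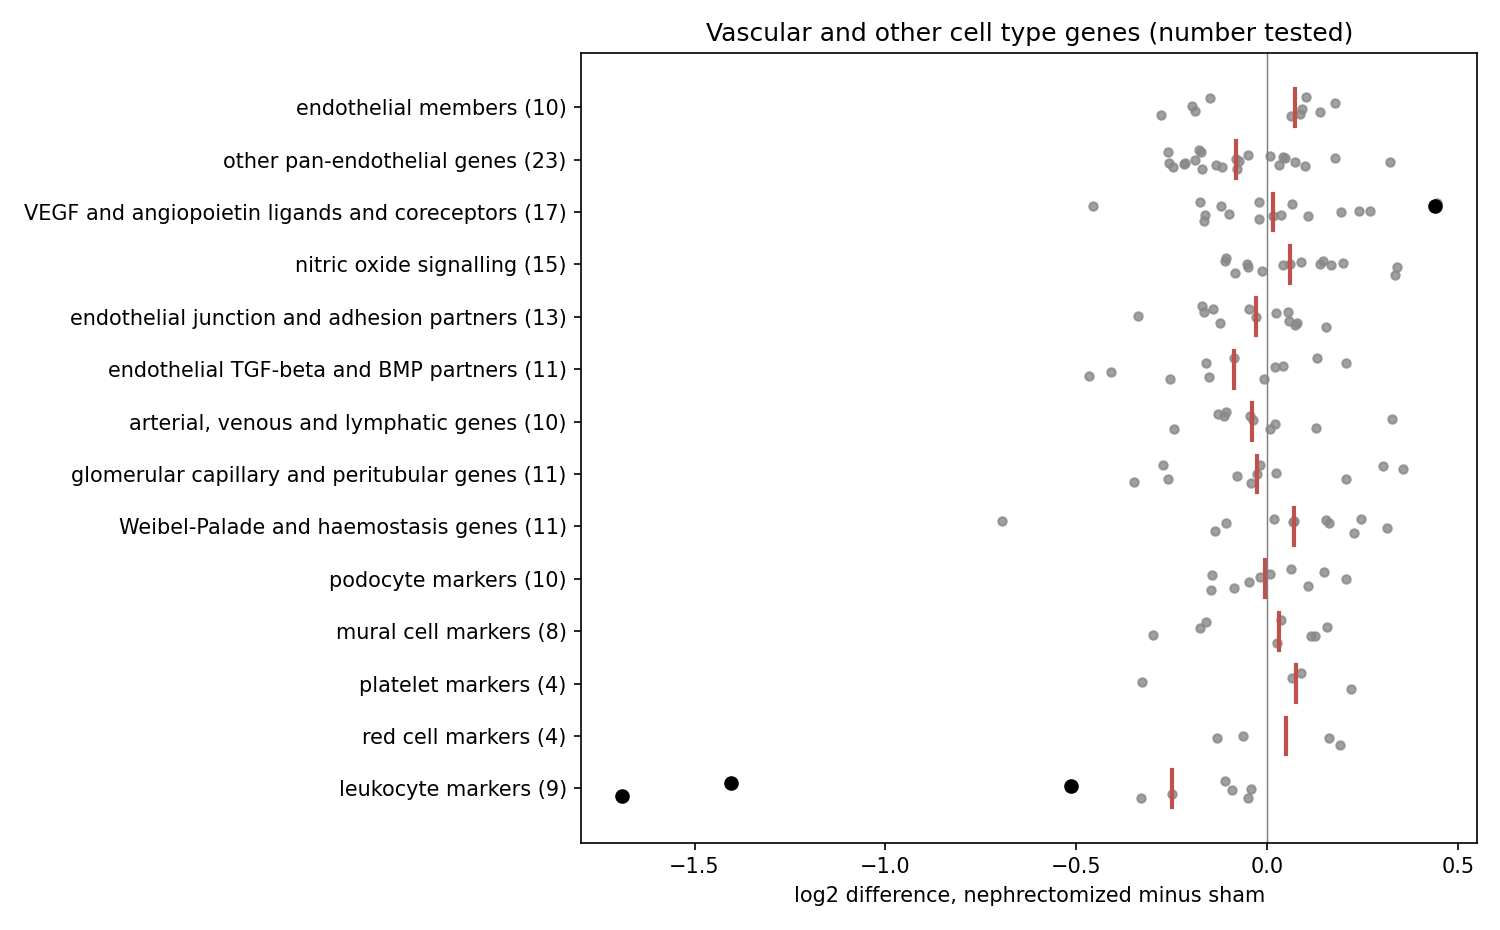
Log2 change, nephrectomized minus sham, of every tested gene (points) in the 10 endothelial markers and 13 other gene lists (1 line each, number tested in brackets). Red bars are medians and black points are genes with a limma adjusted p under 0.05. The proliferation markers, with log2 changes of 0.30 to 2.42, are not drawn. Black points are Vegfb at 0.44 and the leukocyte markers Adgre1 at -0.51, S100a9 at -1.40 and S100a8 at -1.69, and the endothelial markers have none.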

How the data were processed

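Total RNA from 8 right kidneys was labelled with Cy3 and hybridised to 1-colour Agilent rat arrays, per the labels' protocols. Per the file headers, the authors read the images with Feature Extraction 10.5.1.1 and the scanner files hold, for each spot, a processed signal. It is a deposited intensity on a linear scale with the background taken off and with no scaling across arrays. A second deposited table gives log2 values for the whole series. Set against the scanner values of 30513 shared probes, with r and slope of about 1, they are shifted to the 75th percentile and centred per probe over the 8 arrays, in the same direction. Its column medians were 0.00116, 0.0122, -0.000822 and 0.0154 for nephrectomized and -0.0145, -0.00235, -0.000988 and -0.00954 for sham replicates 1 to 4.

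Of 45018 spots per array, 1639 control spots and outlier-marked spots were left out and spots of 1 probe averaged, giving 41012 probes. From the processed signal, log2 values minus each array's 75th percentile were computed. Probes well above background on at least 4 of 8 arrays numbered 25250, of which 25228 were complete and were tested. Symbols came by accession from RefSeq genes of GRCr8 (18713 probes matched). The headers name another build, so array coordinates were not used. A gene was represented by its brightest probe, and a second fit used every probe. The comparison used limma 3.58.1 under R 4.3.3 (nephrectomized minus sham, 6 residual and 2.37 prior degrees of freedom, Benjamini-Hochberg over all features, threshold 0.05), after a test on simulated data. Since no label names an animal, the p-values reflect only how these samples vary, which may be technical, and 4 arrays per group limit the precision.

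Correlations between members were tested by exact two-sided permutation over the 8 arrays and adjusted over 45 pairs, and this test and its alternatives were added after the values were seen. The members, the 14 other lists (209 symbols, 188 on the array, 163 tested) and the tests were chosen with earlier results of these data known. Named are all members with every probe, up to 5 called genes and the 2 brightest tested genes of each other list, and the 5 features most like the members. Beyond that rule, pan-endothelial genes with an unadjusted p under 0.05 are named. So are Pgf, Apln, Thbs1, Id1, Id3, Smad6, Notch4, Pf4 and Treml1, and all of these were chosen after their values were seen. Some list genes that were not tested are named for being below background. The alternatives were normexp background correction, quantile and median normalization, other filters on dim probes, averaging a gene's probes, a trended robust variance, replicate and slide as blocks, each slide alone, the authors' deposited log2 values, and leaving out 1 array at a time. For normexp, the planned mean spot signal is not in the scanner files used here and was replaced by the median spot signal (offset 50).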

Additional observations from a re-analysis of the deposited data

How the results depend on the processing

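In all 20 alternative settings 0 of the 10 endothelial markers passed the threshold in limma, and in all 19 settings of the probe-level fit 0 of the 13 probes did. The lowest limma adjusted p of any marker was 0.179, for Flt1 without sham replicate 4. Of 200 marker values, 8 changed sign, in Tek, Ehd3, Vwf and Eng. Tek was -0.0200 on slide 2 alone and between -0.00739 and 0.162 with 1 array left out. Eng was -0.0192 on slide 1 alone. Ehd3 lay between -0.0554 and 0.162 with 1 array left out, and Vwf between -0.0984 and 0.416. The median log2 change of the markers lay between -0.0769, without sham replicate 1, and 0.0763 with 1 array left out. The count of features past the threshold, 217, became 20 without a filter on dim probes, 393 with probes above background on all 8 arrays, 530 with trend and robust variance, 10 with the replicate block and 100 with slide as a block. On slide 1 and slide 2 alone, with 2 arrays against 2, it was 0 and 0 in limma, with 1882 and 1740 features at an unadjusted p under 0.05. With 1 array left out it lay between 22 (sham replicate 2 left out) and 198 (nephrectomized replicate 1 left out). Of the 45 pairs of markers, 4 passed by Pearson r, against 3 with quantile normalization, 4 with the deposited table, 1 each with normexp, median centring and averaged probes, and 0 to 2 with 1 array left out, in settings chosen after seeing the data. The pair passing with normexp was none of the 4. With median centring and with averaged probes it was Pecam1 with Nos3. Flt1 with Cdh5 did not pass with median centring (adjusted exact permutation p = 0.0614). The causes were not tested. Whether the replicate numbers pair the samples is not given by the labels and was not settled. Same-numbered arrays correlated at 0.14, 0.01, -0.06 and -0.21 in their deviations from the group means, and differently numbered ones between -0.21 and 0.24. With 4 arrays per group these values cannot decide it. The replicate block called 0 endothelial markers.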
